A study of Mus musculus with 11 samples.

Results

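The genes described here encode 8 dual-specificity MAP kinase phosphatases: Dusp1, Dusp2, Dusp4, Dusp5, Dusp6, Dusp7, Dusp10 and Dusp16. They were taken by gene symbol from the authors' deposited gene table, and all 8 were found there and among the 20400 genes measured by probe sets of a single gene. Together they have 12 probe sets of the 37510 used. The rule uses symbols and no measured value, but the set was chosen with earlier results of these data known. The RNA came from CD4 T cells sorted from the spleens of female C57BL/6 mice and was measured on 11 single-channel arrays in 4 groups, with a sort purity of 92% to 99% per the labels. WM IMP cells (3 arrays) were CD45.1+ TCRβ+ CD4+ cells with high CD44 and low CD62L from chimeras in which CD45.1+ wild-type bone marrow had been given to lethally irradiated CD45.2+ MHCII-/- hosts, so that the hosts' own cells lacked MHC class II. WT IMP cells (2 arrays) had the same CD44 and CD62L phenotype and came from unmanipulated wild-type mice of 8 weeks of age. MW naive cells (3 arrays) were CD45.2+ TCRβ+ CD4+ cells with low CD44 and high CD62L from the opposite chimeras, in which CD45.2+ MHCII-/- marrow had been given to lethally irradiated wild-type hosts. The labels disagree on those hosts, which are CD45.1+ in the protocols and genotype and CD45.2+ in the source name, and with CD45.2+ hosts the sort marker would not separate donor cells from host cells. WT naive cells (3 arrays) had that naive phenotype and came from unmanipulated wild-type mice of 8 weeks. Both kinds of chimera were used 8 weeks after transplantation. The labels call the arrays biological replicates and do not say how many mice each stands for, so the p-values measure the spread between these arrays. The chimeric groups differ in donor and host genotype as well as in sorted phenotype, and these cannot be told apart in their comparison.

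MAP kinases (ERK, JNK and p38) are switched on when an upstream kinase phosphorylates a threonine and a tyrosine in their activation loop. The dual-specificity MAP kinase phosphatases remove both phosphates and so switch the kinase off. Several of their genes are themselves turned on by the kinase they inactivate, which makes them negative feedback regulators, and in T cells they help to set how strong and how long the MAP kinase signal from the antigen receptor is. The family divides by place and target. Dusp1, Dusp2, Dusp4 and Dusp5 encode inducible nuclear enzymes, Dusp6 and Dusp7 encode cytoplasmic enzymes that prefer ERK, and Dusp10 and Dusp16 encode enzymes that prefer JNK and p38. On mouse build GRCm38.p6 the genes lie apart on 8 chromosomes. Dusp1 is at chr17:26505591-26508472, Dusp2 at chr2:127336159-127338377, Dusp4 at chr8:34807610-34819894 and Dusp5 at chr19:53529145-53541809. Dusp6 is at chr10:99263231-99267489, Dusp7 at chr9:106368560-106375724, Dusp10 at chr1:184034381-184075636 and Dusp16 at chr6:134715468-134807063.

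The 3 genes whose direction was the same, and passed the test, in both comparisons of IMP with naive cells were Dusp1 and Dusp6, which were higher, and Dusp10, which was lower. The 250 bases before their RefSeq starts (GRCm38.p6) are printed here. They show what stands in front of genes that were higher in both comparisons and of a gene that was lower. They are written 5′ to 3′ on the gene's strand, with the searched motifs in capitals. The windows are chr17:26508473-26508722 on the minus strand for Dusp1, chr10:99262981-99263230 on the plus strand for Dusp6 and chr1:184034131-184034380 on the plus strand for Dusp10.
Dusp1: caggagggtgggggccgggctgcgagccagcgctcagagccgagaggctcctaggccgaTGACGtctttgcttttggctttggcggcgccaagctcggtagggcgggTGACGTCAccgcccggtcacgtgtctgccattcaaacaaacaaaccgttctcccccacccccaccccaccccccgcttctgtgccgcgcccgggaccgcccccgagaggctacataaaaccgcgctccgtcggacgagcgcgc
Dusp6: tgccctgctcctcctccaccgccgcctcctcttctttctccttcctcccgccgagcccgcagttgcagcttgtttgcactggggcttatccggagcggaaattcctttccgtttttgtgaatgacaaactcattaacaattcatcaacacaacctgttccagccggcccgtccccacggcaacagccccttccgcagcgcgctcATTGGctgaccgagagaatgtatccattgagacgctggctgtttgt
Dusp10: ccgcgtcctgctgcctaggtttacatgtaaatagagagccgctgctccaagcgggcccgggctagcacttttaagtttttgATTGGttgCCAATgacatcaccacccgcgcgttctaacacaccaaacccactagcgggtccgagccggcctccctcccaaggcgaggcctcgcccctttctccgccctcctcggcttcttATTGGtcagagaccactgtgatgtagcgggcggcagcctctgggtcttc
The motifs were searched on both strands, and 7 of the 8 genes had such a window in the RefSeq table. The windows of Dusp7 (chr9:106368382-106368631) and Dusp16 (chr6:134792629-134792878) lie partly or wholly inside the gene spans given above. They therefore stand before starts inside those spans. The letters TGACGTCA (the cyclic AMP response element, a binding sequence of CREB) stood in the window of Dusp1, 143 to 136 bases before the start, and in 1.55% of all 32851 windows. Its core TGACG, which overlaps it, occurred in 3 of the 7 windows (Dusp1, Dusp5 and Dusp16) and in 17.8% of all windows. A CArG box, the sequence bound by serum response factor, occurred in the Dusp5 window at 2 adjoining places and in 1.47% of all windows. The letters CCAAT, the sequence bound by the factor NF-Y, occurred in 4 windows (Dusp6, Dusp7, Dusp10 and Dusp16) and in 33.8% of all windows. Neither the AP-1 motif TGANTCA nor the ETS motif CCGGAAG was found in the 7 windows, against shares of 6.75% and 6.91% of all windows. These matches describe letters in a window and were not tested against the expression values.

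Values below are on the scale the authors deposited, taken as log2, and a gene with several probe sets, or a marker list, is given as the mean over them. The deposited values average 0 over the WT naive arrays for every probe set, so a value of 0 is the WT naive mean and levels cannot be set against each other between genes. Cd44, a gene of the sort, followed the labels: it was higher in WT IMP than in WT naive cells by 2.01 ± 0.17 (SE) and in WM IMP than in MW naive cells by 1.85 ± 0.16. H2-Ab1, an MHC class II gene, had values of -3.40, -3.36 and -2.45 in MW naive arrays, against 0.58, -0.23 and -0.35 in WT naive arrays. Over 6 T cell markers the mean lay between -0.52 and -0.31 in WM IMP arrays, -0.21 and -0.18 in WT IMP arrays, -0.67 and -0.36 in MW naive arrays and -0.12 and 0.16 in WT naive arrays. In limma 0 of the 6 passed in either comparison of IMP with naive cells, and at an unadjusted p under 0.05 there were 1 in unmanipulated mice and 0 in the chimeras. Markers of antigen-presenting cells moved with the IMP phenotype. The mean over 10 dendritic cell markers lay between 1.61 and 2.36 in WM IMP arrays, 2.43 and 2.46 in WT IMP arrays, -0.10 and -0.03 in MW naive arrays and -0.11 and 0.17 in WT naive arrays, and 8 of the 10 rose in WT IMP cells and 7 in WM IMP cells. Over 13 monocyte, macrophage and granulocyte markers the mean lay between 0.87 and 1.40 in WM IMP arrays, 1.23 and 1.49 in WT IMP arrays, -0.78 and -0.47 in MW naive arrays and -0.17 and 0.25 in WT naive arrays, with 7 of the 13 higher in each comparison. All 7 measured MHC class II presentation genes rose in both, as did 3 of 12 B cell, 2 of 8 NK cell, 4 of 8 plasma cell and 1 of 5 CD8 T cell markers in WT IMP cells and 7, 5, 4 and 3 of them in WM IMP cells. A further CD8 T cell marker fell in WT IMP cells, and 0 of 7 erythroid and platelet markers passed in either comparison (0 in unmanipulated mice and 3 in the chimeras at an unadjusted p under 0.05). The donor marrow of the MW naive cells was MHCII-/-, so in the chimeras the class II differences cannot be told apart from the donor genotype. Itgax, which encodes the dendritic cell integrin CD11c, was higher by 4.31 ± 0.25 in WT IMP than in WT naive cells and by 4.71 ± 0.23 in WM IMP than in MW naive cells. The files hold no level on which such a marker could be called absent. The part of these cells in the differences of the phosphatase genes was not tested, and in sorted bulk RNA fewer cells of a type and less RNA per cell cannot be told apart. Control probe sets also differed between arrays. The poly-A labelling controls were high in WM IMP 2 (4.20), WT IMP 1 (2.29), MW naive 3 (4.44) and WT naive 1 (2.56) and were at or below -0.91 in the other 7 arrays. The Gapdh 5′ minus 3′ control difference, a sign of RNA integrity or amplification length, was 0.56, -2.71 and -1.69 in WM IMP arrays, -4.23 and -0.27 in WT IMP arrays, -4.22, -3.50 and -1.38 in MW naive arrays and 0.02, -0.42 and 0.41 in WT naive arrays.

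In unmanipulated mice the question was how the phosphatase genes of IMP cells compare with those of naive cells. Of the 8 genes, 4 passed the test in WT IMP against WT naive cells: Dusp1 and Dusp6 were higher and Dusp7 and Dusp10 were lower. Over all 20400 genes 7.66% passed it, with 5.31% higher and 2.35% lower. In the chimeras 5 of the 8 passed in WM IMP against MW naive cells, where Dusp1, Dusp4, Dusp6 and Dusp16 were higher and Dusp10 was lower. There 13.1% of all genes passed, with 6.46% higher and 6.61% lower. The median difference of the 8 genes was 0.49 in WT IMP against WT naive cells, beside -0.01 over all genes, and 0.63 in WM IMP against MW naive cells, beside -0.02. The test was limma's moderated test with Benjamini-Hochberg adjustment over all 20400 genes, and a gene passed at an adjusted p under 0.05.

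Dusp1 encodes MKP-1, an immediate early gene product that inactivates p38 and JNK in the nucleus. Its values were 2.25, 1.15 and 2.11 in WM IMP arrays and 0.96, 0.47 and 0.07 in MW naive arrays. In unmanipulated mice they were 1.49 and 1.22 in WT IMP arrays, against 0.01, -0.08 and 0.07 in WT naive arrays. Every IMP array lay above every naive array. How many of all genes separate in this way was not counted, for Dusp1 or for the genes below. Dusp1 was 2.53-fold higher in WM IMP than in MW naive cells (log2 difference 1.34 ± 0.28 SE, limma adjusted p = 0.00875) and 2.56-fold higher in WT IMP than in WT naive cells (1.36 ± 0.31, adjusted p = 0.0219). The call in unmanipulated mice needed every array of both groups: without WT IMP 1 the adjusted p was 0.217, without WT IMP 2 it was 0.0787, and without WT naive 1, 2 or 3 it was 0.0565, 0.0733 or 0.0612. The chimera call ended when the hybridization control level was added as a covariate (1.29, adjusted p = 0.0896) or only these 2 groups were fitted (adjusted p = 0.0541), and the call in unmanipulated mice ended with the Gapdh 5′ minus 3′ difference as a covariate (1.35, adjusted p = 0.0799). Among the 7 arrays with low poly-A controls the differences were 1.47 ± 0.21 in WM IMP against MW naive cells (adjusted p = 0.011) and 1.23 ± 0.26 in WT IMP against WT naive cells (adjusted p = 0.0771).

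**Figure D1:**
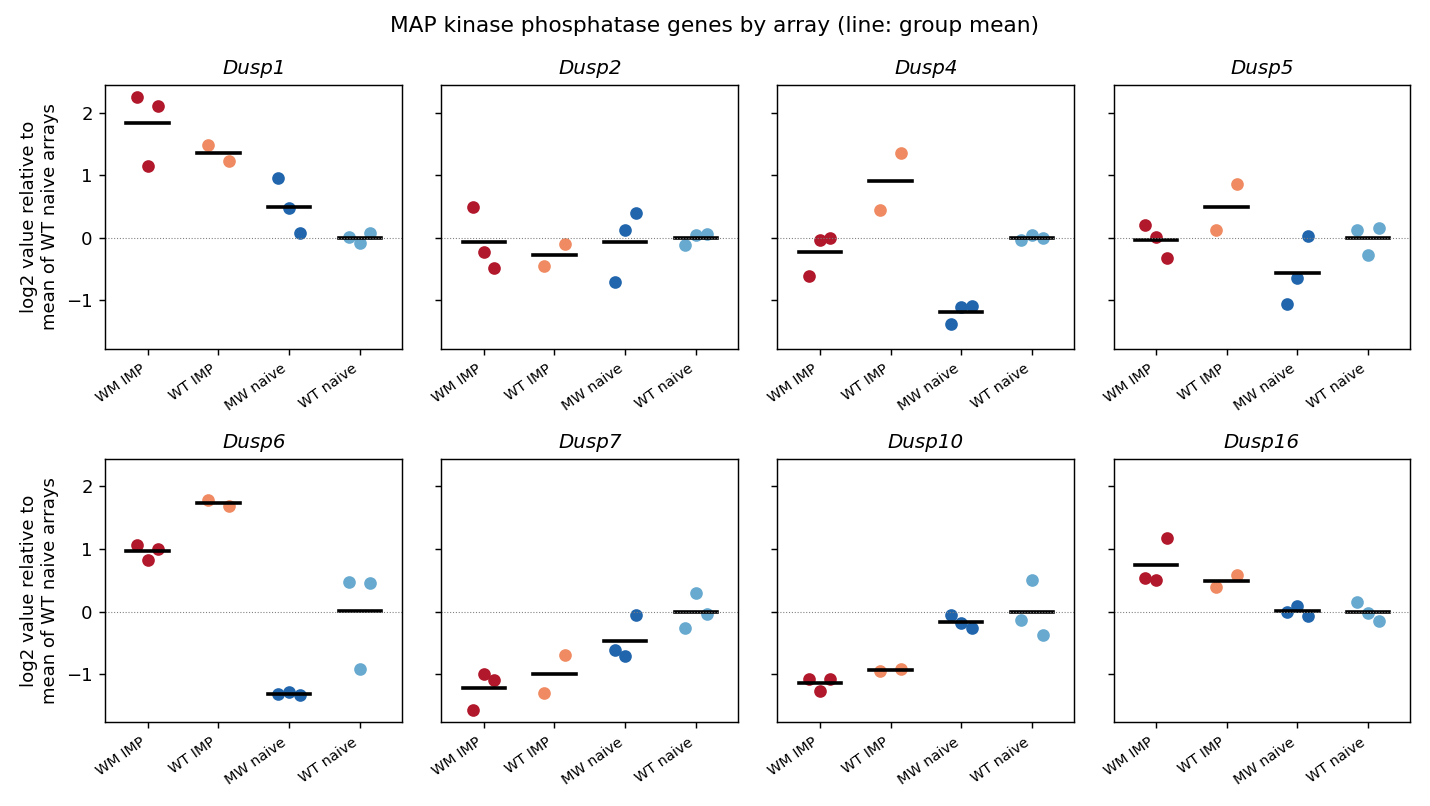
Log2 values of the 8 phosphatase genes on each array with the WT naive average set to 0 (vertical axis), by group (horizontal axis), with 1 point per array and a line at each group mean. All 5 IMP arrays lie above all 6 naive arrays for Dusp1, Dusp6 and Dusp16 and below all 6 for Dusp10. For Dusp4 the WM IMP arrays lie between -0.61 and -0.01 and the MW naive arrays between -1.38 and -1.09. The share of all genes that separate in this way was not counted.

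Dusp2, Dusp4 and Dusp5 are the other inducible nuclear members. Dusp2 encodes PAC-1, known as a phosphatase of activated T cells, and its values were 0.50, -0.23 and -0.48 in WM IMP arrays, -0.45 and -0.10 in WT IMP arrays, -0.71, 0.13 and 0.39 in MW naive arrays and -0.11, 0.05 and 0.06 in WT naive arrays. The groups overlapped throughout. Its log2 difference was -0.01 in WM IMP against MW naive cells (95% interval -0.64 to 0.63, limma adjusted p = 0.995) and -0.27 in WT IMP against WT naive cells (-0.99 to 0.44, adjusted p = 0.870). Dusp4 encodes MKP-2, a nuclear phosphatase of ERK and JNK. The Dusp4 values were -0.61, -0.04 and -0.01 in WM IMP arrays and -1.38, -1.10 and -1.09 in MW naive arrays, groups that did not overlap. In unmanipulated mice they were 0.45 and 1.36 in WT IMP arrays, against -0.03, 0.04 and -0.01 in WT naive arrays, and these did not overlap either. Dusp4 was 1.96-fold higher in WM IMP than in MW naive cells (0.97 ± 0.23, adjusted p = 0.0157). In WT IMP against WT naive cells the difference was of like size, 0.91 ± 0.25, and did not pass (adjusted p = 0.0543). The chimera call was lost without MW naive 1 (0.88, adjusted p = 0.067) or WM IMP 3 (0.86, adjusted p = 0.0523), with the Gapdh covariate (0.87, adjusted p = 0.0588) and in the low poly-A arrays (0.93, adjusted p = 0.0773). The difference in unmanipulated mice passed without WT IMP 1 (1.36, adjusted p = 0.0122) or WM IMP 1 (0.91, adjusted p = 0.0246) and with array weights (adjusted p = 0.00829) or the hybridization covariate (adjusted p = 0.0318). Dusp5 encodes a nuclear phosphatase specific for ERK. Its values were 0.21, 0.01 and -0.33 in WM IMP arrays, 0.12 and 0.86 in WT IMP arrays, -1.06, -0.64 and 0.03 in MW naive arrays and 0.13, -0.28 and 0.15 in WT naive arrays, with overlap in each comparison. The Dusp5 differences, 0.52 ± 0.28 in WM IMP against MW naive cells (adjusted p = 0.275) and 0.49 ± 0.31 in WT IMP against WT naive cells (adjusted p = 0.533), did not pass.

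Dusp6 had the largest difference of the 8 genes in both comparisons of IMP with naive cells. It encodes MKP-3, a cytoplasmic phosphatase of ERK whose transcription follows ERK activity. Its values were 1.06, 0.83 and 1.0 in WM IMP arrays, against -1.31, -1.28 and -1.34 in MW naive arrays, and the spread within each of these groups was small. They were 1.78 and 1.69 in WT IMP arrays, against 0.47, -0.91 and 0.45 in WT naive arrays, where the array WT naive 2 stood apart from the other two. In order of group means Dusp6 ran WT IMP, WM IMP, WT naive, MW naive, and no neighbouring groups in that order overlapped. Dusp6 was 4.83-fold higher in WM IMP than in MW naive cells (log2 difference 2.27 ± 0.29, limma adjusted p = 0.000336) and 3.33-fold higher in WT IMP than in WT naive cells (1.74 ± 0.33, adjusted p = 0.00692). The chimera call held without each array in turn. In unmanipulated mice the adjusted p was 0.0771 without WT IMP 1 (1.69). Among the arrays with low poly-A controls the differences were 2.32 ± 0.40 in the chimeras (adjusted p = 0.0225) and 1.92 ± 0.49 in unmanipulated mice (adjusted p = 0.153). Over the 11 arrays the genes whose values ran most like Dusp6 were Adgre4 (Pearson r = 0.978), Mgst1 (0.969) and Lyz1 (0.965). Dusp6 moved in the same direction as the dendritic cell, myeloid and MHC class II markers between IMP and naive cells, and the part of other cells in its difference was not tested.

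Dusp7 encodes the other cytoplasmic ERK phosphatase of the set. Its mean over 3 probe sets was -1.58, -1.0 and -1.09 in WM IMP arrays, against -0.62, -0.71 and -0.06 in MW naive arrays, and it was -1.30 and -0.69 in WT IMP arrays, against -0.26, 0.30 and -0.04 in WT naive arrays. The IMP arrays lay below the naive arrays within each comparison. Dusp7 was lower by 0.99 ± 0.27 on the log2 scale in WT IMP than in WT naive cells (1.99-fold lower, limma adjusted p = 0.0451). In WM IMP against MW naive cells its difference of -0.76 ± 0.24 did not pass (adjusted p = 0.0594), though it passed in the authors' deposited gene table fitted by the same model (-1.08, adjusted p = 0.02). The call in unmanipulated mice was lost without 1 array in 7 instances: without WT IMP 1 (adjusted p = 0.469), WT naive 1, 2 or 3 (0.0503, 0.155 and 0.114), MW naive 1 or 2 (0.0629 and 0.0563) or WM IMP 3 (0.0557). It was also lost with the Gapdh covariate (adjusted p = 0.186), the hybridization covariate (0.0647) or poly-A level as a block (0.0648), with the probe set of greatest variance (0.153) and in the low poly-A arrays (0.296). The 3 probe sets of Dusp7 also differed. Probe set 1427416_x_at had a difference of -1.5 in WM IMP against MW naive cells (adjusted p = 0.0467 over all probe sets) and -1.02 in WT IMP against WT naive cells (adjusted p = 0.339). Probe set 1452097_a_at was at -2.35, -2.19 and 0.09 in MW naive arrays, against -0.04, 0.26 and -0.22 in WT naive arrays, so that MW naive 3 stood with WT naive and the other 2 with the IMP arrays, which ran between -2.36 and -1.14. Probe set 1460393_a_at stayed between -0.91 and 0.34 on all 11 arrays.

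Dusp10 and Dusp16 encode phosphatases of JNK and p38, MKP-5 and MKP-7. Dusp10, as the mean of its 2 probe sets, was -1.07, -1.27 and -1.08 in WM IMP arrays and -0.06, -0.19 and -0.26 in MW naive arrays. It was -0.95 and -0.91 in WT IMP arrays, against -0.13, 0.51 and -0.38 in WT naive arrays, so every IMP array lay below every naive array. Dusp10 was 1.96-fold lower in WM IMP than in MW naive cells (log2 difference -0.97 ± 0.19, limma adjusted p = 0.00654) and 1.91-fold lower in WT IMP than in WT naive cells (-0.93 ± 0.22, adjusted p = 0.0224). The chimera call held without each array in turn, and the call in unmanipulated mice was lost without WT IMP 1 (adjusted p = 0.174) or WT IMP 2 (adjusted p = 0.110), in the fit of 2 groups (0.0672) and with the Gapdh covariate (0.067). Among the low poly-A arrays neither passed (-0.95 in the chimeras, adjusted p = 0.125, and -0.98 in unmanipulated mice, adjusted p = 0.353). Its probe sets did not carry the same pattern. Probe set 1417164_at was -1.45, -1.30 and -1.28 in WM IMP arrays, against 0.77, 0.62 and 0.37 in MW naive arrays, and it was -0.92 and -0.67 in WT IMP arrays, against -0.04, -0.07 and 0.11 in WT naive arrays. For that probe set the difference was -1.93 ± 0.15 in the chimeras (adjusted p = 7.21e-06) and -0.80 ± 0.17 in unmanipulated mice (adjusted p = 0.0168). The difference between these 2 values, -1.13 ± 0.23, did not pass (adjusted p = 0.181). Probe set 1417163_at was at or below -0.70 in every IMP and MW naive array and spread between -0.87 and 1.10 in WT naive arrays, and its differences of -0.01 ± 0.38 in the chimeras and -1.07 ± 0.42 in unmanipulated mice did not pass (adjusted p = 0.990 and 0.224). The row of Dusp10 in the authors' deposited gene table ran with 1417164_at over the 11 arrays (Pearson r = 0.987) and not with 1417163_at (r = 0.209).

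**Figure D2:**
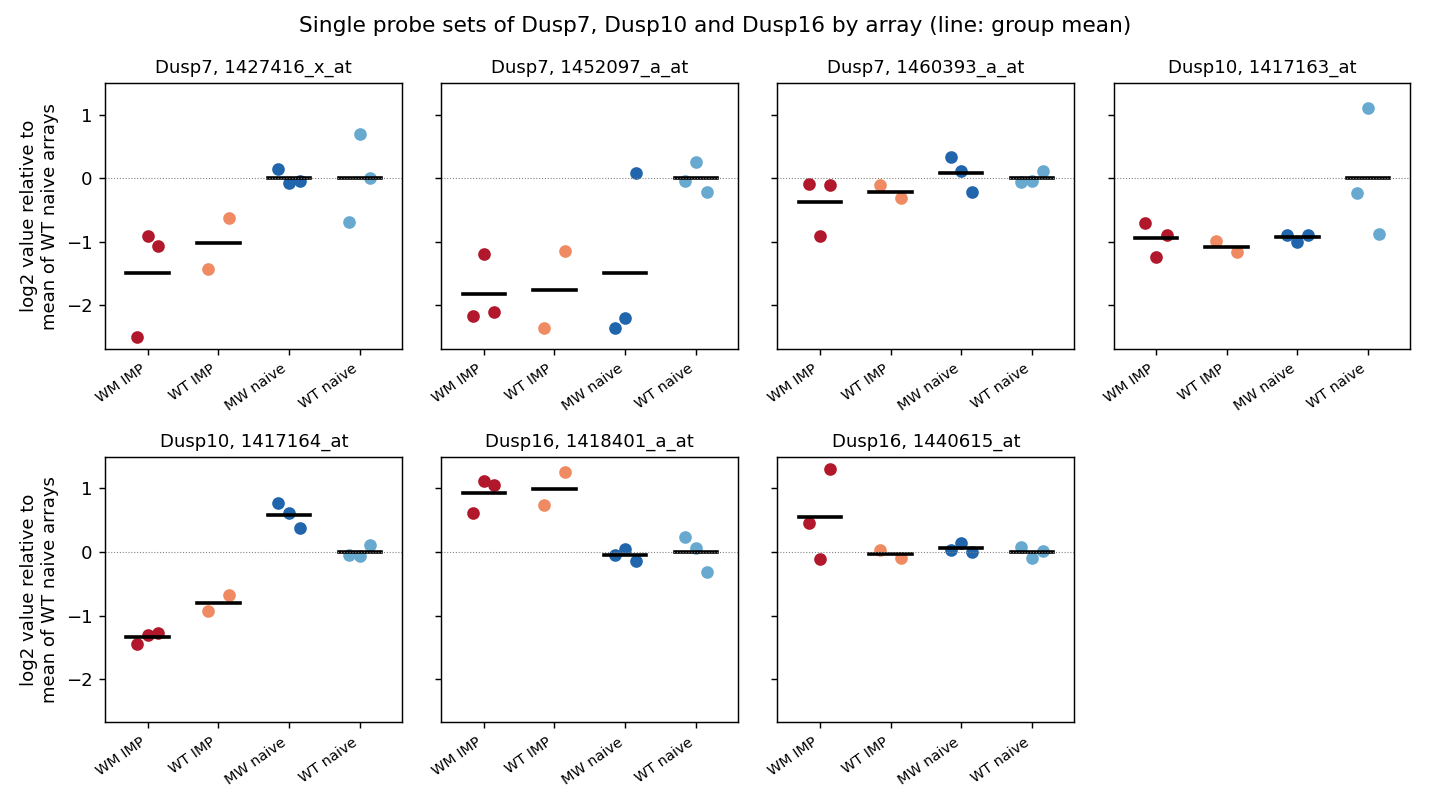
Log2 values of each probe set of Dusp7, Dusp10 and Dusp16 on each array with the WT naive average set to 0 (vertical axis), by group (horizontal axis), with 1 point per array and a line at each group mean. Dusp10 probe set 1417164_at separates IMP from naive arrays, while 1417163_at has WT naive 2 at 1.10 and WT naive 3 at -0.87.

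Dusp16 was 0.54, 0.50 and 1.18 in WM IMP arrays, against 0.00, 0.09 and -0.07 in MW naive arrays, and it was 0.39 and 0.58 in WT IMP arrays, against 0.16, -0.02 and -0.15 in WT naive arrays. The IMP arrays lay above all naive arrays. Dusp16 was 1.66-fold higher in WM IMP than in MW naive cells (log2 difference 0.73 ± 0.18, limma adjusted p = 0.0195), and in WT IMP against WT naive cells the difference of 0.48 ± 0.20 did not pass (adjusted p = 0.223). The chimera call was lost without MW naive 1 (adjusted p = 0.0608) or MW naive 3 (adjusted p = 0.0615), in the fit of 2 groups (0.0796), with the Gapdh covariate (0.0505) and in the low poly-A arrays (0.11). The difference in unmanipulated mice passed in the authors' deposited gene table fitted by the same model (0.73, adjusted p = 0.0315) and with the probe set of greatest variance (0.99, adjusted p = 0.0249). The 2 probe sets differed. Probe set 1418401_a_at was 0.62, 1.11 and 1.06 in WM IMP arrays and -0.04, 0.04 and -0.14 in MW naive arrays. In unmanipulated mice it was 0.74 and 1.25 in WT IMP arrays and 0.24, 0.06 and -0.31 in WT naive arrays. By itself this probe set passed in both comparisons, with differences of 0.97 ± 0.20 in the chimeras (adjusted p = 0.00959) and 0.99 ± 0.23 in unmanipulated mice (adjusted p = 0.0245). Probe set 1440615_at passed in neither (0.49 ± 0.28 and -0.03 ± 0.31, adjusted p = 0.327 and 0.999). Over all probe sets 10.2% passed in WM IMP against MW naive cells and 5.37% in WT IMP against WT naive cells. Of the 12 probe sets of the 8 genes, 6 passed in the chimeras, 1 each of Dusp1, Dusp4, Dusp6, Dusp7, Dusp10 and Dusp16. In unmanipulated mice 4 of the 12 passed, 1 each of Dusp1, Dusp6, Dusp10 and Dusp16.

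The naive cells of the chimeras were set against those of unmanipulated mice to see how the naive baselines of the phosphatase genes compare. These groups differ at once in irradiation and transplantation, in donor genotype and in timing (8 weeks after transplantation against 8 weeks of age). These factors cannot be told apart here. Of the 8 genes, 2 passed in MW naive against WT naive cells, Dusp4 and Dusp6, both lower, where 2.73% of all genes passed, 0.706% higher and 2.02% lower. Dusp6 was 2.48-fold lower in MW naive cells (log2 difference -1.31 ± 0.29, limma adjusted p = 0.0419) and Dusp4 2.28-fold lower (-1.19 ± 0.23, adjusted p = 0.0240). Neither gene's groups overlapped, although for Dusp6 the array WT naive 2, at -0.91, lay much nearer to the MW naive arrays than the other WT naive arrays did. Both calls rested on few arrays. Without WT naive 1 or 3 the adjusted p of Dusp6 was 0.147 or 0.172, without MW naive 1, 2 or 3 it was 0.132, 0.136 or 0.083, without either WT IMP array it was 0.0598, and without WM IMP 2 or 3 it was 0.0514 or 0.0576. For Dusp4 it was 0.0779, 0.0753 or 0.0945 without WT naive 1, 2 or 3 and 0.101 or 0.0835 without MW naive 1 or 2. With the Gapdh 5′ minus 3′ difference as a covariate, which is lower in every MW naive than in every WT naive array, the differences were -1.01 for Dusp4 (adjusted p = 0.283) and -1.19 for Dusp6 (adjusted p = 0.323), and with the hybridization covariate -0.91 (adjusted p = 0.149) and -0.90 (adjusted p = 0.25). Among the low poly-A arrays they were -1.26 (adjusted p = 0.0977) and -1.06 (adjusted p = 0.356). Dusp6 also missed the threshold with poly-A level as a block (0.0534), in the fit of 2 groups (0.0717) and in the authors' deposited gene table fitted by the same model (-1.21, adjusted p = 0.0536). Some markers of other cells were lower in MW naive cells too, 1 of 8 NK cell markers and 2 of 13 monocyte, macrophage and granulocyte markers. The latter 2 were Lyz2, by 1.92 ± 0.23 (adjusted p = 0.00326), and Fcgr3, by 1.35 ± 0.24 (adjusted p = 0.0177). Also lower were 3 of 7 MHC class II genes. Of 12 B cell, 8 plasma cell, 10 dendritic cell and 5 CD8 T cell markers 0 passed. At an unadjusted p under 0.05 there were 2 plasma cell and 2 CD8 T cell markers. Of 7 erythroid and platelet markers 1 was higher. MHCII-/- marrow was the donor of these chimeras, so for class II genes donor genotype and other cells cannot be told apart. Of the 6 T cell markers Cd5 was lower by 1.06 ± 0.23 (adjusted p = 0.0368), and 5 had an unadjusted p under 0.05. The median difference of the 6 was -0.45, beside 0.05 over all genes. The part of other cells in the differences of Dusp4 and Dusp6 was not tested. The remaining genes did not pass, with differences of 0.50 ± 0.28 for Dusp1 (adjusted p = 0.427), -0.55 ± 0.28 for Dusp5 (adjusted p = 0.366) and -0.46 for Dusp7 (adjusted p = 0.378). Dusp10 was at -0.17 (adjusted p = 0.727) as the mean of both probe sets, but at 0.65 (adjusted p = 0.0247) in the fit to the authors' deposited gene table. Its direction between the naive groups turned with the probe set. The difference was 0.59 ± 0.15 for 1417164_at (limma adjusted p = 0.06) and -0.93 ± 0.38 for 1417163_at (adjusted p = 0.239).

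The IMP cells of the chimeras were set against those of unmanipulated mice in the same way. Irradiation and transplantation, host genotype and timing differ together between these groups too and cannot be told apart. None of the 8 genes passed in limma (0 of 8, where 1.27% of all genes passed, 0.373% higher and 0.897% lower), and at an unadjusted p under 0.05 there were 2, Dusp4 and Dusp6. The Dusp4 difference was -1.13 in WM IMP against WT IMP cells (95% interval -1.68 to -0.57, adjusted p = 0.0572), and the 2 groups did not overlap. Dusp4 passed without WT IMP 1 (-1.58, adjusted p = 0.0412) or WM IMP 2 (-1.21, adjusted p = 0.0409), and in the authors' deposited gene table fitted by the same model (-1.18, adjusted p = 0.040). Dusp6 differed by -0.77 (-1.50 to -0.05, adjusted p = 0.257) and passed without WT naive 2 (adjusted p = 0.0342). In Dusp1 the difference was 0.48 (-0.21 to 1.17, adjusted p = 0.447) and in Dusp16 it was 0.26 (-0.18 to 0.70, adjusted p = 0.517). The difference between the 2 IMP against naive comparisons was tested as an interaction, and 0 of the 8 genes passed it, where 0.0588% of all genes passed (0.0441% higher and 0.0147% lower), and none had an unadjusted p under 0.05. Its values ran between -0.04 for Dusp10 and 0.54 for Dusp6. The Dusp10 value is a mean of 2 probe sets that went opposite ways. In limma the interaction was -1.13 ± 0.23 for 1417164_at (unadjusted p = 0.000376, adjusted p = 0.181). For 1417163_at it was 1.06 ± 0.57 (unadjusted p = 0.0886, adjusted p = 0.763). Averaged over both comparisons, 6 of the 8 genes passed, where 17.6% of all genes did (9.0% higher and 8.56% lower): Dusp6 was higher by 2.0 ± 0.22 (adjusted p = 6.57e-05), Dusp1 by 1.35 ± 0.21 (adjusted p = 0.000952), Dusp4 by 0.94 ± 0.17 (adjusted p = 0.00253) and Dusp16 by 0.61 ± 0.13 (adjusted p = 0.00848). The 2 lower genes in that average were Dusp10 (-0.95 ± 0.15, adjusted p = 0.000802) and Dusp7 (-0.88 ± 0.18, adjusted p = 0.00524).

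**Figure D3:**
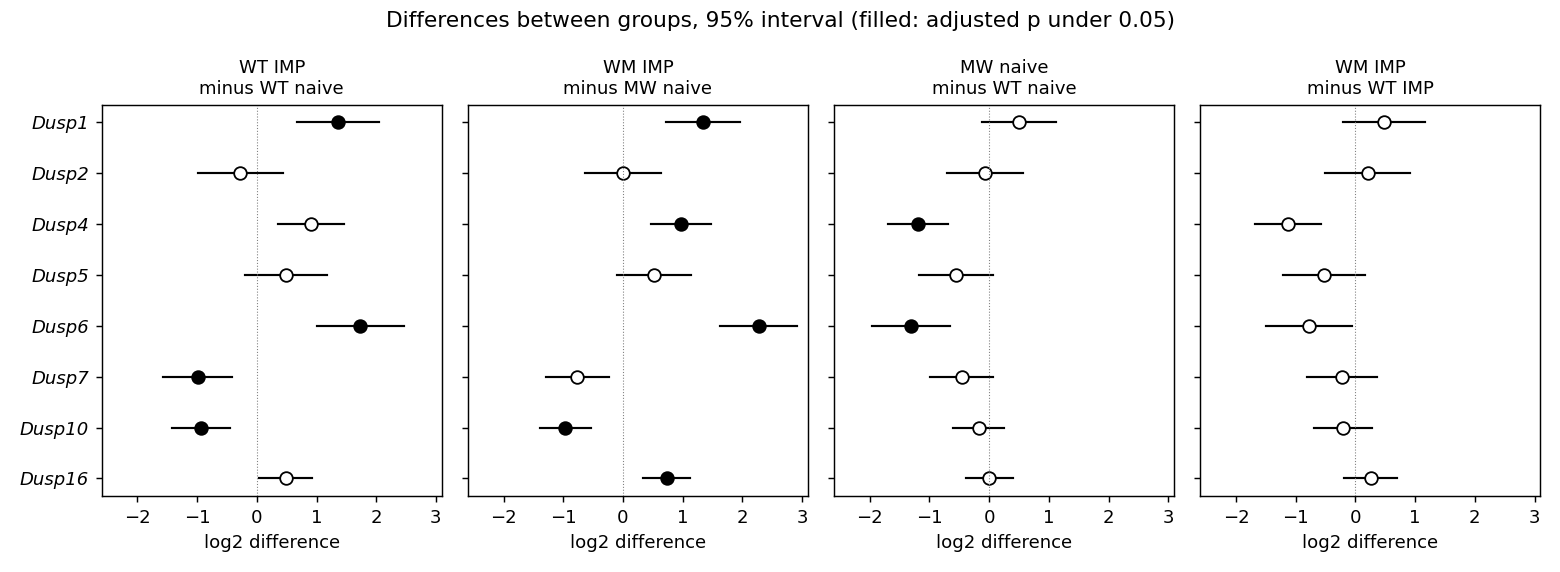
Log2 difference of each phosphatase gene (rows) in the 4 comparisons between groups (panels, horizontal axis), with 95% intervals from limma, filled where the adjusted p over all genes was under 0.05. Dusp1 and Dusp6 lie to the right and Dusp10 to the left of 0 as filled points in both comparisons of IMP with naive cells.

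Among the 13 other measured members of the dual-specificity family, 1 rose in WT IMP against WT naive cells and none fell, and in WM IMP against MW naive cells 1 rose and 2 fell. That is 1 and 3 of 13, beside 7.66% and 13.1% of all genes. Dusp9, which encodes MKP-4, another ERK phosphatase of the cytoplasm, was 1.82 and 1.38 in WT IMP arrays, against 0.08, 0.01 and -0.09 in WT naive arrays, a rise of 1.60 ± 0.21 (limma adjusted p = 0.000569). It was 0.31, 0.95 and 0.27 in WM IMP arrays, against 0.06, 0.25 and 0.28 in MW naive arrays, groups that overlapped. Dusp9 was lower in WM IMP than in WT IMP cells by 1.09 ± 0.21 (adjusted p = 0.0381). Dusp22, which encodes a phosphatase known to restrain Lck in T cells, rose in WM IMP cells by 1.26 ± 0.23 (adjusted p = 0.00380), with values of 1.5, 1.11 and 1.11 in WM IMP arrays and 0.33, 0.19 and -0.59 in MW naive arrays. Dusp28, an atypical member, fell by 1.38 ± 0.21 (adjusted p = 0.00120), to -1.90, -1.17 and -1.01 in WM IMP arrays, against -0.07, -0.08 and 0.21 in MW naive arrays. It was also lower in WM IMP than in WT IMP cells, by 1.24 ± 0.24 (adjusted p = 0.0371). Dusp11, which encodes an RNA phosphatase, fell by 0.68 ± 0.12 in WM IMP against MW naive cells (adjusted p = 0.00344). Of 5 measured MAP kinase phosphatases of other families, none passed in unmanipulated mice (2 at an unadjusted p under 0.05), and in the chimeras Ptpn5, a tyrosine phosphatase of MAP kinases, was higher by 0.71 ± 0.18 (adjusted p = 0.0219) and Ppm1b, a serine and threonine phosphatase, lower by 0.63 ± 0.13 (adjusted p = 0.00815).

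The kinases that the phosphatases act on, and those above them, are set here beside the shares of all genes that passed, 7.66% in WT IMP against WT naive and 13.1% in WM IMP against MW naive cells. Of 11 MAP kinases, Mapk8, which encodes JNK1, was the 1 that passed in unmanipulated mice (-0.73 ± 0.18 in WT IMP against WT naive cells, limma adjusted p = 0.0261), and none passed in the chimeras, also at an unadjusted p under 0.05 (0 of 11). The 7 MAP kinase kinases held 0 calls in either comparison of IMP with naive cells, with 1 in unmanipulated mice and 2 in the chimeras at an unadjusted p under 0.05. Map2k1, which encodes the ERK activator MEK1, was lower in MW naive than in WT naive cells by 0.73 ± 0.14 (adjusted p = 0.0219). Also lower in MW naive cells were Map3k4 of the next list (by 0.84 ± 0.19, adjusted p = 0.0403) and 3 of the 10 RAS genes, Rasal3 (1.39 ± 0.31, 0.0386), Nras (0.81 ± 0.18, 0.0405) and Grb2 (0.68 ± 0.14, 0.0353), where 2.02% of all genes were lower. Of 12 MAP kinase kinase kinases, Map3k8, which encodes TPL2, an activator of MEK, rose in both, by 1.99 ± 0.36 in WT IMP against WT naive cells (adjusted p = 0.00488) and by 2.18 ± 0.32 in WM IMP against MW naive cells (adjusted p = 0.000817). Map3k5, which encodes the stress kinase ASK1, rose in WT IMP cells by 0.63 ± 0.15 (adjusted p = 0.0305). Among 10 genes of RAS activation Nras fell in both, by 0.93 ± 0.20 in unmanipulated mice (adjusted p = 0.0156) and by 1.18 ± 0.18 in the chimeras (adjusted p = 0.00116), and it was lower in WM IMP than in WT IMP cells by 1.06 ± 0.20 (adjusted p = 0.0371). Rasgrp1, the RAS exchange factor downstream of the antigen receptor, fell in WT IMP cells by 0.67 ± 0.18 (adjusted p = 0.0404). The median differences of these 4 lists lay between -0.18 and -0.07 in WT IMP against WT naive cells, beside -0.01 over all genes. In WM IMP against MW naive cells they were -0.03 for MAP kinases, -0.01 for MAP kinase kinases and -0.20 for MAP kinase kinase kinases. For RAS activation the median there was -0.03, beside -0.02 over all genes.

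Feedback inhibitors of other kinds and the genes that ERK induces give the neighbours of Dusp6 in the pathway. Of 6 Sprouty and Spred genes, Spry2 rose in both comparisons, by 1.32 ± 0.26 in WT IMP against WT naive cells (limma adjusted p = 0.00874) and by 1.19 ± 0.23 in WM IMP against MW naive cells (adjusted p = 0.00559). Spry1 had a difference of 1.72 ± 0.49 in unmanipulated mice and did not pass (adjusted p = 0.0609). Of 15 ERK-induced genes, most of which encode transcription factors, 3 rose (all genes 5.31%) in WT IMP cells: Ier3, an immediate early gene that does not encode a transcription factor, by 1.93 ± 0.40 (adjusted p = 0.0123), Egr2 by 1.03 ± 0.17 (adjusted p = 0.00266) and Etv5 by 0.64 ± 0.12 (adjusted p = 0.00754). In WM IMP cells 3 rose and 1 fell (all genes 6.46% and 6.61%): Egr2 rose by 2.10 ± 0.15 (adjusted p = 3.6e-06), Ier3 by 1.65 ± 0.36 (adjusted p = 0.0102) and Egr1 by 0.56 ± 0.16 (adjusted p = 0.0378), and Myc fell by 1.32 ± 0.23 (adjusted p = 0.00268). Between the naive groups 3 of the 15 were lower in MW naive cells (all genes 2.02%), Egr1 by 1.68 ± 0.16 (adjusted p = 0.00133), Jun by 1.32 ± 0.17 (adjusted p = 0.00367) and Egr2 by 1.14 ± 0.15 (adjusted p = 0.00411). Between the IMP groups 4 were lower in WM IMP cells (all genes 0.897%): Jun by 1.70 ± 0.19 (adjusted p = 0.00406), Fos by 1.46 ± 0.28 (adjusted p = 0.0371), Egr1 by 1.10 ± 0.17 (adjusted p = 0.0198) and Etv5 by 0.58 ± 0.12 (adjusted p = 0.0498). The comparisons share arrays, so these counts are not independent of each other. Of 9 kinases activated by MAP kinases, none passed in unmanipulated mice (1 at an unadjusted p under 0.05) and 1, Mapkapk5, fell in the chimeras by 0.42 (adjusted p = 0.0493).

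**Figure D4:**
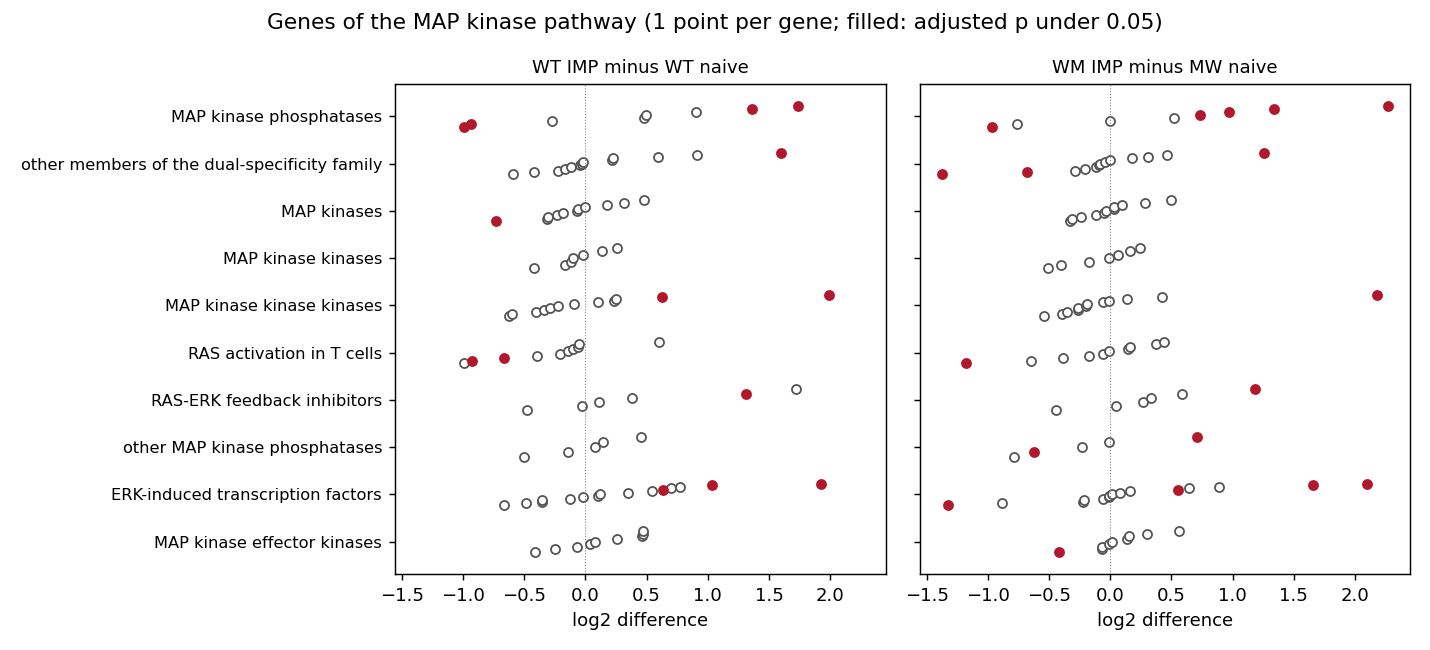
Log2 difference of each measured gene in 10 lists of the MAP kinase pathway (rows) in WT IMP against WT naive and WM IMP against MW naive cells (panels, horizontal axis), with 1 point per gene, filled where the adjusted p over all genes was under 0.05. The row of the 8 phosphatase genes runs between -0.99 and 1.74 in unmanipulated mice, and the row of the 11 MAP kinases between -0.73 and 0.48.

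The 8 genes did not share one pattern over the arrays. As a description over 11 arrays, which share the WT naive baseline and the 4 groups, Dusp1 and Dusp16 ran together (Pearson r = 0.831), as did Dusp4 and Dusp6 (0.793), Dusp4 and Dusp5 (0.772) and Dusp7 and Dusp10 (0.821). Dusp1 ran against Dusp7 (r = -0.920) and Dusp10 (r = -0.802). Dusp2 had no correlation above 0.391 in size with any of the other genes. The genes of the whole table whose values ran most like each of the others, over the same 11 arrays, were Mrpl52 for Dusp1 (r = 0.979), D930017J03Rik for Dusp2 (0.903), Irak2 for Dusp4 (0.970), Abhd12 for Dusp5 (0.938), Galnt2 for Dusp7 (0.970), Cbx2 for Dusp10 (0.988) and Cbr3 for Dusp16 (0.983).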

How the data were processed

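Each of the 11 arrays measured total RNA of one sorted CD4 T cell sample of the spleen, 3 each of WM IMP, MW naive and WT naive and 2 of WT IMP cells. The authors deposited log2 values per probe set, made with RMA per the submitters' processing notes. These average 0 over the WT naive arrays for every probe set, so they are relative to WT naive cells. The base 2 was taken as the scale that RMA gives and is not stated in the sources used here; neither are the RMA version and the array's probe annotation. A second deposited table holds log2 values of 27800 rows, quantile normalized by its name, with the same baseline. Neither table holds a brightness, so a filter on dim probes could not be run, and precision is limited by the number of arrays.

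Probe sets were assigned to genes through that second table, and 860 probe sets of several genes and 1712 rows with several symbols were left out. Old symbols were updated through RefSeq gene IDs (17877 genes named, 2053 symbols changed). A gene's value is the mean of its probe sets. All 11 arrays entered one fit by group with lmFit and eBayes of limma 3.58.1 (R 4.3.3), and p-values were adjusted by Benjamini-Hochberg over 20400 genes. A gene was called at an adjusted p under 0.05, and every adjusted p in the text is from limma. The fit was tested on simulated data. Tables were joined and plotted in Python 3.11.15. Of 14 listed other members of the dual-specificity family 13 were measured as single genes, as were 5 of 6 listed MAP kinase phosphatases of other families.

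The 8 genes, the pathway lists and the marker lists were chosen with earlier results of these data known. Named besides the 8 genes were, of each list, up to 4 called genes with the largest difference, and the genes most correlated with each of the 8. Spry1 was named after its value was seen. Alternatives were the replicate number as a block, fits of 2 groups, array weights, robust variances, other probe set rules, the second table, median centring, labelling and RNA integrity controls, stricter thresholds and leaving out each array. The hybridization control covariate was added after seeing the data. Replicate numbers were not used as a pairing in the main fit, and the labels do not state one.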

Additional observations from a re-analysis of the deposited data

How the results depend on the processing

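Of 1040 values of single phosphatase genes under alternatives, 955 kept their side of the threshold without a called change of direction (62 of them, not called in either setting, changed sign), 67 lost the call, 17 gained one and 1 reversed: Dusp10 in MW naive against WT naive cells was 0.65 in the second deposited table, whose row runs with probe set 1417164_at, against -0.17 as the mean of both probe sets. The 955 include 168 interaction values and 171 values between the IMP groups, where 0 genes were called in the main fit. They are therefore no measure of how stable the calls were. Lost calls were 26 in WT IMP against WT naive, 12 in WM IMP against MW naive and 24 in MW naive against WT naive cells, with 5 in the average. In WT IMP against WT naive cells 4 of 8 genes passed, with 0 in the 7 arrays with low poly-A controls, 2 with the Gapdh covariate, 1 at an adjusted p under 0.01 and 2 with at least a 2-fold change, and 1 to 5 with 1 array left out. In WM IMP against MW naive cells 5 passed, with 3 when only these groups were fitted, 2 in the low poly-A arrays, 3 with the Gapdh covariate, 3 at 0.01, 2 at 2-fold and 3 to 5 with 1 array left out. In MW naive against WT naive cells 2 passed, with 1 under the replicate block, 1 in the fit of 2 groups and 1 with poly-A level as a block, 0 in the low poly-A arrays, with the Gapdh or hybridization covariate or at 0.01, and 0 to 2 with 1 array left out. In WM IMP against WT IMP cells 0 passed, with 1 (Dusp4) under the replicate block and in the second table, and 0 to 1 with 1 array left out. In the average 6 passed, with 3 in the low poly-A arrays, 2 at 2-fold and 6 to 7 with 1 array left out, and the interaction had 0 under each alternative run. The low poly-A arrays and the left-out arrays make smaller designs; the cause of the other losses was not tested. Where WT IMP was left with 1 array, that array was assumed to vary like the other groups.

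Among arrays with the same replicate number 2 of 15 pairs had a correlation of deviations above 0.1 (range -0.283 to 0.188). Only WT naive and WT IMP cells came from the same kind of mouse. Their same-numbered pairs had correlations of 0.188 and -0.062. The deviations of the 2 WT IMP arrays mirror each other, so this check cannot decide whether those arrays were paired. Under the replicate block Dusp4 passed in WT IMP against WT naive cells (0.96, adjusted p = 0.0215), Dusp7 passed in WM IMP against MW naive cells (-0.76, adjusted p = 0.0313) and Dusp6 did not in MW naive against WT naive cells (adjusted p = 0.0525). Counts over all genes moved by more than 1.5 times in several settings. At an adjusted p under 0.01, and with at least a 2-fold change, they were 821 and 937 in WT IMP against WT naive cells, 1412 and 1151 in WM IMP against MW naive cells, 107 and 231 between the naive groups, 31 and 160 between the IMP groups and 2102 and 996 in the average, and at 0.01 the interaction had 6. In WT IMP against WT naive cells 1563 genes passed, with 478 in the low poly-A arrays, 1020 with the Gapdh covariate, 3052 with array weights and 702 to 2067 with 1 array left out. In WM IMP against MW naive cells 2667 passed, with 1160 in the low poly-A arrays, 1530 in the fit of 2 groups and 1582 with the hybridization covariate. In MW naive against WT naive cells 556 passed, with 15 in the low poly-A arrays, 14 with the Gapdh covariate, 299 under the replicate block, 929 in the fit of 2 groups, 979 with the probe set of greatest variance, 2063 with array weights and 123 to 1017 with 1 array left out. In WM IMP against WT IMP cells 259 passed, with 101 under the replicate block, 8 in the fit of 2 groups, 9 in the low poly-A arrays, 6 with the hybridization covariate, 538 with the probe set of greatest variance, 453 with array weights and 14 to 929 with 1 array left out. In the average 3583 passed, with 1540 in the low poly-A arrays and 2309 to 4063 with 1 array left out. The interaction had 12, with 7 under the replicate block, 1 in the low poly-A arrays, 4 with the Gapdh covariate, 8 with the hybridization covariate, 18 with poly-A level as a block or with the probe set of greatest variance, 24 in the second table, 58 with array weights and 4 to 63 with 1 array left out. A filter on dim probes was not run, because the files hold no signal level.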
